A study of Mus musculus with 6 samples.

Results

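Immune cells in the fetal pancreas were followed here through 42 genes that mark macrophages, granulocytes, mast cells and lymphocytes, chosen by symbol, of which 37 were found among the 14681 genes of the authors' deposited table. The table reports RNA sequencing of the dorsal pancreas, the lobe that lies against the spleen, in 3 knockout and 3 control samples of C57BL/6 mouse embryos at embryonic day 18.5. The samples titled knockout correspond to the Dpy30∆P embryos of the protocol, and the controls carry no further genotype in the labels. Dpy30 is a core subunit of the COMPASS complexes, which methylate lysine 4 of histone H3. The driver of the deletion is not given in the labels, although the name of the deposited table refers to Pdx1, a gene of the pancreatic epithelium. The members Tyrobp, Lyz1, Kit, Cd79a and Ccr7 are not analysed here.

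Macrophages settle in fetal organs before birth and live there as resident cells that clear debris. They depend on the receptor Csf1r and the transcription factor PU.1, the product of Spi1. Neutrophils, which are granulocytes, carry antimicrobial proteins in their granules, and mast cells store proteases. Lymphocytes are sparse in peripheral fetal tissue. None of these cells descends from the pancreatic epithelium.

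The table gives 1 mean of normalized counts per gene over all libraries, so no value per sample and no separate knockout and control level can be shown for any gene. Normalized counts are reads per gene after correction for library depth, and the depth of each library is unknown. The table does not state which group is the numerator of its fold changes. A positive sign is read below as higher in the samples labelled knockout and a negative sign as lower, and all directions would turn if the table was made the other way round.

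The targeted gene does not check these labels. Dpy30 had a mean count of 29.4 and a reconstructed unshrunken log2 difference of 0.50 ± 1.66 (standard error, SE), whose 95% interval ran from -2.75 to 3.75. Its unadjusted p was 0.766 in the authors' deposited table. The sign is the opposite of that of a loss, the interval is wide, and reads from parts of the gene outside a deletion would also be counted. Pdx1 was at -0.89 ± 1.10 (SE), with an unadjusted p of 0.418 in the authors' deposited table.

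Markers of the labelled tissue were present, with mean counts of 15391 for Cpa1, an acinar carboxypeptidase, and 5335 for Ins2, which encodes insulin. In bulk tissue, more cells of a type and more RNA per cell cannot be told apart.

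The members, which are only some of the genes of immune cells, were a small part of the counted RNA. The mean counts of the 37 members summed to 2811, which is 0.0767% of all counts in the table. Their median was 46.1, against 65.1 over all genes. Macrophage and monocyte genes held 65.6% of the members' counts, pan-leukocyte genes 13.8%, granulocyte genes 7.58%, the mast cell gene Cpa3 6.71%, and lymphoid and antigen presentation genes 6.30%. These shares depend on transcript length and on the number of genes in each class, 15 for macrophages and monocytes but 1 for mast cells. A mean count of at least 100 was reached by 8 members, and these were Mrc1, Lyz2, Csf1r, C1qa, Cpa3, C1qb, Itgb2 and Coro1a. Another 9 members, 4 of them lymphoid, had a mean count under 10.

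The regions upstream of these genes were searched for short motifs, which played no part in choosing the members. Promoter windows were found in RefSeq (GRCm38.p6) for 28 of the 37 members, and the 250 bases before the start were searched on both strands for the PU.1 core GAGGAA. It was present upstream of 8 of 11 macrophage and monocyte genes, 4 of 7 granulocyte genes, 2 of 4 pan-leukocyte genes, 2 of 5 lymphoid and antigen presentation genes and 0 of 1 mast cell genes. It was present for 16 of the 28 members, or 57.1%, against 25.9% of all 27025 genes with a window, and 12 members lacked it, among them Lyz2, Fcer1g and Coro1a. A C/EBP core, TTGCNNAA, was present upstream of 6 of the 28 members, or 21.4%, against 10.8% of all genes. These were 3 of 7 granulocyte, 2 of 11 macrophage and monocyte, 1 of 5 lymphoid and antigen presentation, 0 of 4 pan-leukocyte and 0 of 1 mast cell genes. A GATA core, AGATAA, was present upstream of 4 of the 28 members, or 14.3%, against 11.4% of all genes. These were Cpa3, the granulocyte genes S100a9 and Ltf, and Ptprc. PU.1, C/EBP and GATA factors direct macrophage, granulocyte and mast cell genes, but a match of so few letters is a description and not a binding site. The windows of 2 complement genes that lie side by side, of the mast cell gene and of Ltb, the member with the smallest p, are shown 5′ to 3′ with matches to the 3 cores in capitals. These 4 each hold a match. The window of Lyz2, the second highest member per kb, is shown beside them as one with no match.
C1qb (chr4:136886201-136886450, minus strand): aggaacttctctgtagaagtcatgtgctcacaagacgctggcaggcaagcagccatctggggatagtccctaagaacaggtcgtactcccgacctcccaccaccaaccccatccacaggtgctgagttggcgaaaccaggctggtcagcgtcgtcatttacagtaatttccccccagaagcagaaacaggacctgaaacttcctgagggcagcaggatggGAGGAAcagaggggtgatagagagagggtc
C1qc (chr4:136892915-136893164, minus strand): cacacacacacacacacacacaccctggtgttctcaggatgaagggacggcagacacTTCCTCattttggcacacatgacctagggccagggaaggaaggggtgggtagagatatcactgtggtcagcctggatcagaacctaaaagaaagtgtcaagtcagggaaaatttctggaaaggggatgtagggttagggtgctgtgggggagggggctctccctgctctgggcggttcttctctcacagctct
Cpa3 (chr3:20242182-20242431, minus strand): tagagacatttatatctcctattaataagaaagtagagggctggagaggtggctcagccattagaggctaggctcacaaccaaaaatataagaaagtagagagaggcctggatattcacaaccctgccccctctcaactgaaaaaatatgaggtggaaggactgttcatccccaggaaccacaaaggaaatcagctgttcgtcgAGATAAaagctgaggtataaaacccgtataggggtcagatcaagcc
Ltb (chr17:35194257-35194506, plus strand): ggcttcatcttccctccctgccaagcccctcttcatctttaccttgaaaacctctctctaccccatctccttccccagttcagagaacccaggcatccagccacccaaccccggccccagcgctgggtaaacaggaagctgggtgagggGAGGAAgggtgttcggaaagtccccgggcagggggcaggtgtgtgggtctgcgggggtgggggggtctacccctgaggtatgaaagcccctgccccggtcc
Lyz2 (chr10:117282273-117282522, minus strand): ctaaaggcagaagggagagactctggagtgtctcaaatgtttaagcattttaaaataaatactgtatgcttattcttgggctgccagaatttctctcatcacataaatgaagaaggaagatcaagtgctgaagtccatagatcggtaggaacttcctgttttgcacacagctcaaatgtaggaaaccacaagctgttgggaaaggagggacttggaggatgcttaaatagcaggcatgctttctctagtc
The C1qb window has a PU.1 core at position -30 relative to the start, and the C1qc window has one on the other strand at -193. The sequence after the start of the C1qb window was not found near the beginning of any GENCODE transcript of C1qb. It was found for the other windows shown, so the C1qb position is less certain. The Cpa3 window has a GATA core at -46, and the Ltb window a PU.1 core at -101.

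**Figure D1:**
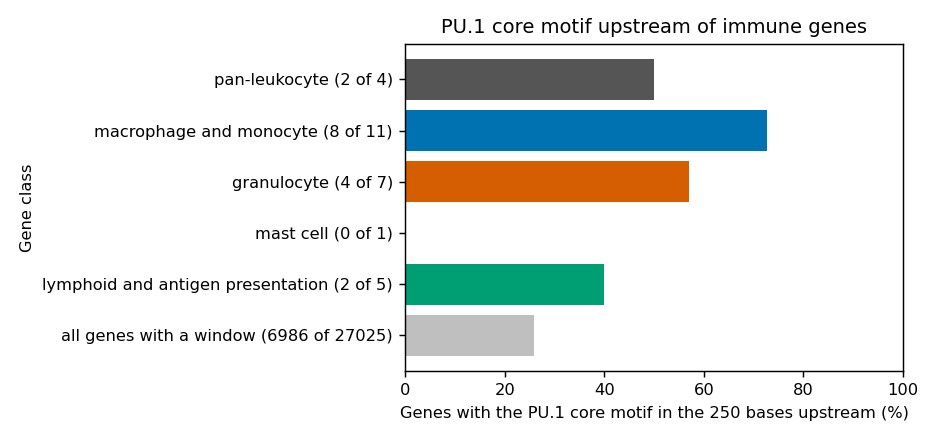
Share of genes (x axis, %) with the PU.1 core motif in the 250 bases upstream of the start, by gene class (y axis), with the number of genes in brackets. Macrophage and monocyte genes reach 72.7%, against 25.9% of all genes with a window, and the classes hold few genes.

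Levels between genes were compared per kilobase of the longest coding transcript, since longer transcripts yield more reads. On this scale of mean count per kb, C1qa was highest at 235, followed by Lyz2 at 233, Cpa3 at 130 and C1qb at 122, and the median over all genes was 22.2. C1qa, C1qb and C1qc encode the 3 chains of C1q, the first complement component, and Lyz2 encodes the lysozyme of macrophages and neutrophils. C1qa thus stood at the 95.3th percentile of all genes with a length. Fcer1g, a signalling chain shared by immune receptors, was at 74.3 per kb, and Cd74, the invariant chain of class II antigen presentation, at 70.4. Mrc1, the mannose receptor of tissue macrophages, on chromosome 2 (14229414-14332023) of GRCm38, had the highest mean count of all members (369) but was at 68.7 per kb because of its length.

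Genes whose products work as partners were not at equal levels per kb. C1qa was 1.93-fold above C1qb and 3.35-fold above C1qc, although the 3 genes lie within one cluster on chromosome 4 with gaps of 3.60 and 2.98 kb. S100a9 was 4.68-fold above S100a8, its partner in the neutrophil protein calprotectin. The authors' test returned no p for S100a9. Whether a single library dominates its mean cannot be checked, so this ratio is uncertain. H2-Ab1 was 9.76-fold above H2-Aa, the other chain of the same class II molecule, and Cd74 was 3.75-fold above H2-Ab1. H2-Aa had the lowest mean count of all members, 2.17, so its ratio to H2-Ab1 rests on very few reads. Itgb2, the chain common to the leukocyte integrins, was 2.54-fold above Itgam, its partner in the complement receptor Mac-1. With the shortest transcripts this ratio was 1.81, and Itgam shares much of its sequence with another gene model, as given below. No error can be given for these ratios, since the table holds 1 mean per gene.

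Markers within a class spread widely. In the macrophage class, Spi1 was at 30.5 per kb, Cd68, a lysosomal glycoprotein, at 29.7, the haemoglobin scavenger receptor Cd163 at 10.4, Cd14, a receptor for bacterial lipopolysaccharide, at 8.68, and Aif1, which encodes the marker Iba1, at 4.47. Granulocyte genes ran from 73.6 per kb for S100a9 to 2.98 for Elane, the neutrophil elastase. The level of S100a9 is uncertain in the same way as its ratio to S100a8. Ltf, which encodes lactoferrin, was at 22.8 per kb with the longest transcript and at 101 with the shortest, so its place is uncertain. Lymphoid and antigen presentation genes had the lowest class median, 5.10 per kb, against 52.3 for macrophage and monocyte genes. Cd3e, a chain of the T cell receptor complex, was at 6.23 per kb, the interleukin 7 receptor Il7r at 3.97, Cd79b, a signalling chain of the B cell receptor, at 3.66, and the chemokine receptor Cxcr4 at 2.09. Ptprc, which encodes CD45 and is expressed by all leukocytes, was itself at only 5.24 per kb.

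**Figure D2:**
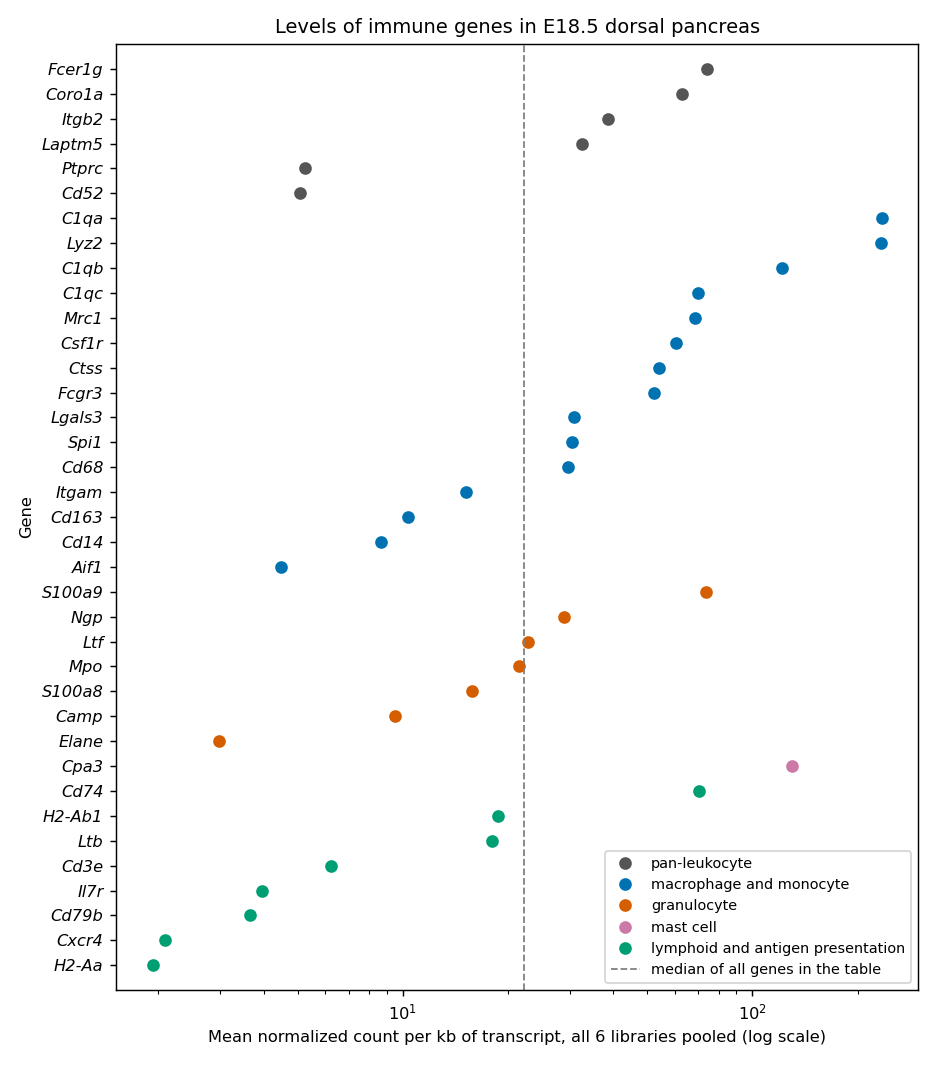
Mean normalized count per kb of transcript over all 6 libraries (x axis, log scale) for the 37 members (y axis), coloured by class, with the median of all genes as a dashed line. C1qa and Lyz2 are highest at 235 and 233, and 7 of the 8 lymphoid and antigen presentation genes lie under 20.

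Reads of some members could also belong to other genes. Lyz2 shared 32.8% of its 31-base stretches with Lyz1, Fcgr3 shared 14.3% with the related Fc receptor gene Fcgr2b, and Itgam shared 69.1% with the gene model Gm49368. Their values are uncertain to that extent, because the authors' counting could split such reads. Of the 37 members, 31 shared under 1% with any other transcript.

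The comparison of pancreas labelled knockout with control pancreas called no member at an adjusted p under 0.05, the threshold chosen here. Of 28 members with an adjusted p, 0 had one under 0.05 in the authors' DESeq2 test, where 0.743% of all 12108 genes with an adjusted p did (0.264% higher and 0.479% lower). At an adjusted p under 0.1, 1 member was called, Ltb, beside 1.07% of all genes. At an unadjusted p under 0.05, 1 of 36 members was higher, Ltb, and 0 were lower, against 2.70% of all genes in each direction. A share of 1 in 36 is near that background. The sign was positive in 30 of 37 members, or 81.1%, against 54.7% of all genes in the table. It was positive in 13 of 15 macrophage and monocyte genes, 7 of 7 granulocyte genes, 4 of 6 pan-leukocyte genes and 5 of 8 lymphoid and antigen presentation genes. The share over all genes is not matched for count, and positive signs were more frequent at the lowest counts. Within 5% of the mean count of Aif1 (3.91), 88 genes with a p had a positive sign. Within 5% of that of Cxcr4 (3.78), 34 had a negative one. A mean count under 10 was found for 9 of the 37 members, among them 3 of the 7 granulocyte genes. Members of a class can share cells and so are not independent of each other.

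The authors' deposited fold changes were strongly shrunken towards 0, and for the members they lay between -0.07 and 0.09 on the log2 scale. Unshrunken values were therefore reconstructed from the deposited values, and are printed for the 21 members whose reconstruction matched the deposited p and had an SE of at most 2. A limit on the SE also leaves out genes with few reads and some with large differences. The median of these 21 log2 fold changes was 0.37, against 0.01 over the 9254 genes that met the same conditions, and 16 of the 21 were positive. The SE of a single gene among the 21 had a median of 1.03, larger than their median change. It is not an error of that median, and none can be given for it.

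Pan-epithelial genes had a median reconstructed log2 fold change of -0.74 over 13 genes. Of 11 genes of the pancreas list in the table, 7 were called lower, beside 0.479% of all genes. Among them was Clps, pancreatic colipase, at -3.19 ± 0.27 (SE). A positive sign was found for 2, Cela1 at 0.56 ± 0.28 and Ptf1a at 0.34 ± 0.93. Among the pan-epithelial genes, Krt18 was itself called lower (adjusted p = 0.00315 in the authors' DESeq2 table), so that list is not a neutral reference. Whether its other genes respond to the deletion was not tested. Taken relative to pan-epithelial genes, every member's value is 0.74 higher by construction, and the median of the 21 members becomes 1.11. Fcer1g, C1qc, Itgam and Cd74 then change from a negative to a positive sign.

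The smallest errors among the members belonged to the macrophage genes Mrc1, Csf1r, Lyz2 and C1qa. For Mrc1 the reconstructed log2 difference was 0.02 ± 0.47 (SE). Its 95% interval ran from -0.90 to 0.93, and its ends stand for a 1.90-fold increase and a 1.86-fold decrease. Csf1r was at 0.37 ± 0.56 (interval -0.72 to 1.46) and Lyz2 at 0.37 ± 0.58 (interval -0.77 to 1.52). The intervals end at a 2.76-fold increase for Csf1r and a 2.86-fold increase for Lyz2. C1qa was at 0.29 ± 0.68, C1qb at 0.85 ± 0.72 and C1qc at -0.02 ± 0.96. Ctss, a protease of antigen-presenting cells, was at 0.56 ± 0.97, and Spi1 at 0.10 ± 1.15. Fcgr3, an activating Fc receptor, was at 1.83 ± 1.55. The median over the 13 macrophage genes with a printed value was 0.37, with a range from -0.34 to 1.83, and 11 were positive. The remaining macrophage genes in the table, Cd14 and Aif1, had mean counts of 14.2 and 3.91 and no size that could be determined. In the authors' deposited table Aif1 had the smallest p of the class (unadjusted p = 0.180).

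Pan-leukocyte genes did not point one way. Coro1a, an actin regulator of leukocytes, was at 1.87 ± 1.03 (SE), and its adjusted p of 0.877 was the smallest in the class in the authors' deposited table, and Laptm5, a lysosomal protein of blood cells, was at 2.51 ± 1.94. Itgb2 was at -1.36 ± 0.95 (unadjusted p = 0.155 in the authors' deposited table), and Fcer1g at -0.27 ± 1.59. None of these intervals left out 0. Ptprc, with a mean count of 26.6, and Cd52, a surface glycoprotein of lymphocytes and monocytes with a mean count of 2.62, had positive signs and no size that could be determined.

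Granulocyte genes all had a positive sign, but few could be sized. Ltf was at 1.13 ± 1.40 (SE) and Mpo, the myeloperoxidase of neutrophil granules, at 0.01, with a 95% interval from -2.44 to 2.45. Ngp, a neutrophil granule protein with a mean count of 35.4, had an unadjusted p of 0.124, and Camp, the cathelicidin with a mean count of 7.21, one of 0.117 in the authors' deposited table. S100a9, with a mean count of 38.2, was one of 295 genes among 14681 with no p in that table. S100a8 had a p of 0.763 and a mean count of 7.65, and Elane a p of 0.217 and a mean count of 2.93, both unadjusted and from the authors' deposited table.

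The mast cell gene Cpa3, a carboxypeptidase stored in mast cell granules, was at 0.71 ± 0.71 (SE), with a 95% interval from -0.68 to 2.11 and an unadjusted p of 0.314 in the authors' deposited table. Of 9 further mast cell genes from a wider list, Cma1, the chymase, was at 174 per kb and Tpsb2, a tryptase, at 156, beside 130 for Cpa3. The other 7 lay between 2.50 per kb for Il1rl1 and 11.1 for Mitf. Their reconstructed log2 fold changes were 0.21 ± 0.81 for Cma1 and 1.22 ± 0.65 for Tpsb2 (SE), and neither passed the authors' test (unadjusted p = 0.0610 for Tpsb2 in the authors' deposited table). Of 9 mast cell genes of that list in the table, 8 had a positive sign, beside 54.7% of all genes. An unadjusted p under 0.05 was found for 0, beside 2.70% of all genes in each direction.

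Lymphoid genes were mostly too low to size. Ltb, on chromosome 17 (35194507-35196305) of GRCm38, encodes lymphotoxin beta, a membrane protein of lymphocytes and lymphoid tissue inducer cells that acts on the stromal receptor Ltbr. Its mean count was 20.8 and its sign positive. In the authors' DESeq2 table its p was 0.000970 before adjustment and 0.0947 after it. The deposited log2 fold change of Ltb was 0.03 ± 0.22 (deposited error), and its unshrunken size could not be determined, because the reconstruction did not return its p. Its receptor Ltbr had a mean count of 245 and was at 0.09 ± 0.52 (SE, reconstructed log2). Cd74 was at -0.01 ± 0.88 (SE). Il7r and Cd79b had unadjusted p-values of 0.256 and 0.147 in the authors' deposited table, H2-Ab1 0.396 and Cd3e 0.847. Negative signs were found for H2-Aa, Cd74 and Cxcr4.

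**Figure D3:**
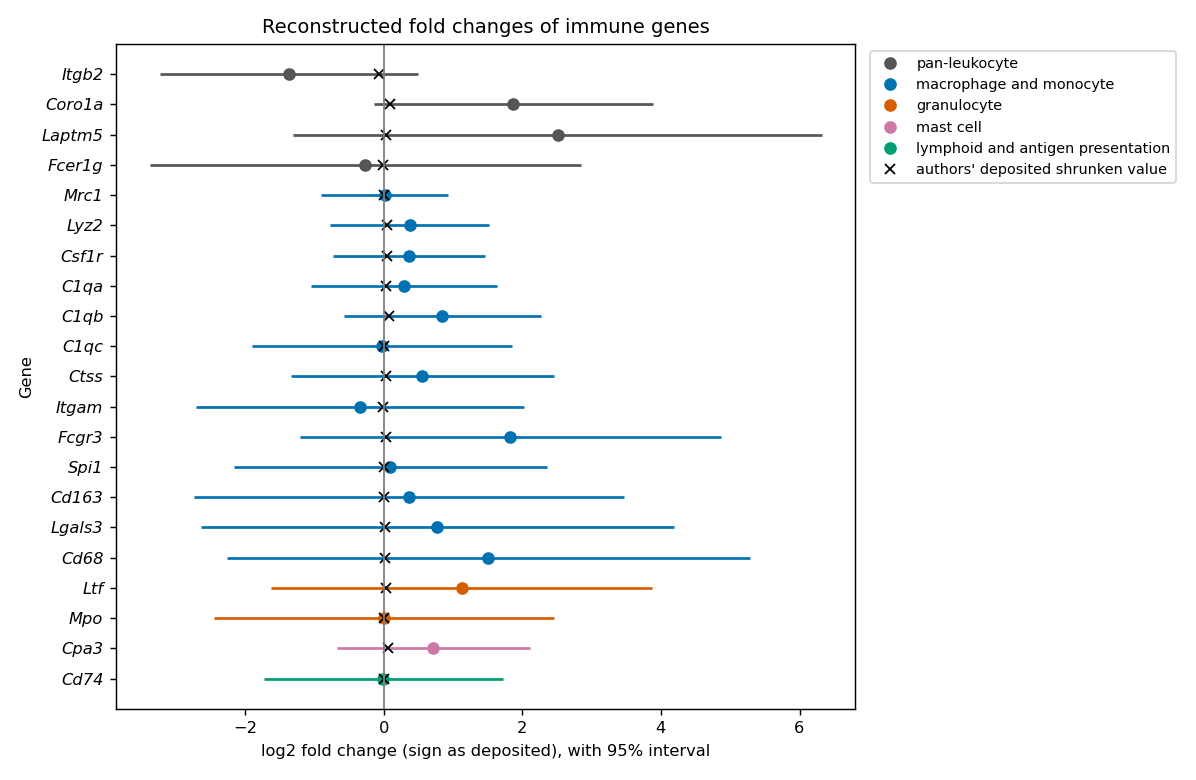
Reconstructed unshrunken changes of 21 members (y axis) on the log2 scale (x axis), with 95% intervals as lines and the authors' deposited shrunken values as crosses. All 21 intervals include 0, and that of Mrc1, from -0.90 to 0.93, is the narrowest.

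Members with few reads had little range in p. Of 2599 genes in the table with a p and a mean count under 10, 0 were called and the smallest unadjusted p in the authors' deposited table was 0.0282. All 9 members under that count lie in this range. For Cd52, Elane and Aif1, the p was close to the smallest of any gene of the same sign and like count. Among genes within 5% of the mean count of Ltb and with its sign, 5.04% had a smaller p. The SE of Mrc1 was 0.88 times the median of genes of like count, that of Csf1r 0.97 times and that of Laptm5 1.82 times.

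**Figure D4:**
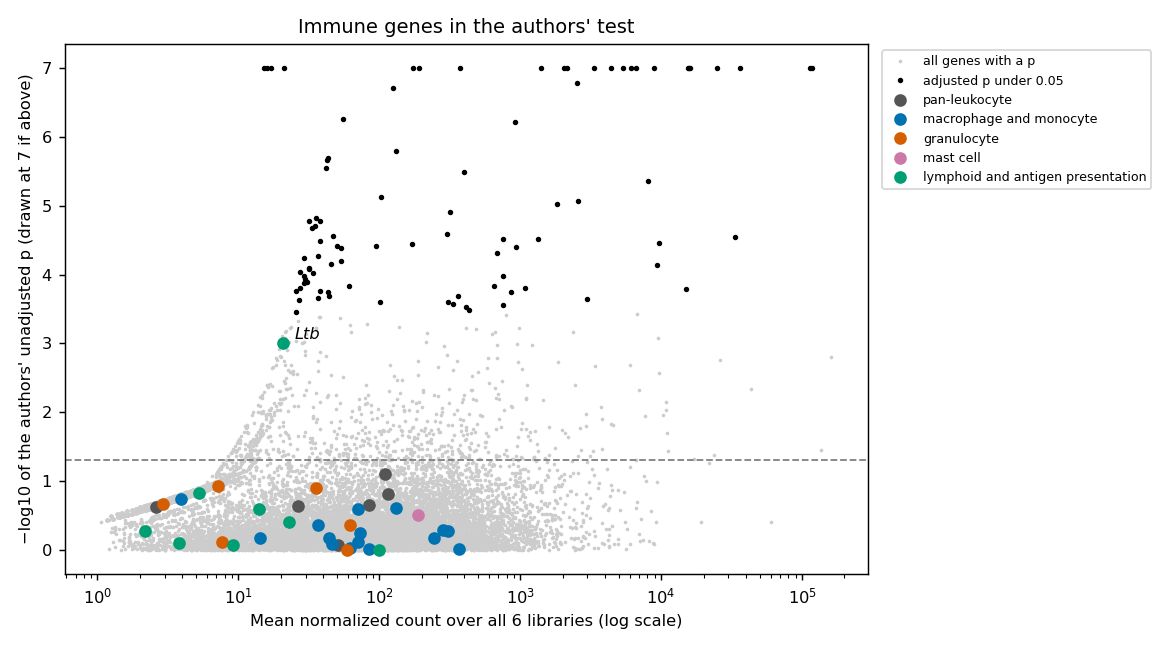
Mean normalized count over all 6 libraries (x axis, log scale) against −log10 of the authors' unadjusted p (y axis) for all genes with a p (grey), called genes (black) and 36 members (coloured by class). Values over 7 are drawn at 7, and Ltb is the 1 member above the dashed line at the 0.05 threshold.

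Other genes of the same cell types were taken from 6 wider lists of macrophage, pan-leukocyte, granulocyte, mast cell, lymphoid and antigen presentation genes. Of 164 listed, 122 were in the table. The authors' DESeq2 test called 0 of them, beside 0.743% of all genes with an adjusted p. Some of the 122, such as Trem2 and Btk, had no adjusted p and so could not be called. At an unadjusted p under 0.05, 8 of 120 were higher and 4 lower, which is 6.67% and 3.33%, beside 2.70% of all genes in each direction. The sign was positive in 83 of 122, or 68.0%, beside 54.7% of all genes, a share not matched for count. The median reconstructed log2 fold change of the 55 with a printed value was 0.21.

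The 8 with a positive sign included Tcf7, a transcription factor of T cells and innate lymphoid cells, at a mean count of 23.8, with p-values in the authors' DESeq2 table of 0.000569 before adjustment and 0.0689 after it. The others were Ncf4, a subunit of the phagocyte oxidase, Srgn, the proteoglycan of storage granules, Apoe, Cd5l, Lsp1, Blnk and Lcn2. Sizes could be determined for Apoe, a lipid carrier of macrophages and liver, at 0.79 ± 0.33 (SE), and for Lsp1, a leukocyte actin-binding protein, at 1.84 ± 0.85. Those with a negative sign included Ciita, the regulator of class II genes, Cxcr2, a neutrophil chemokine receptor, and Clec4n, a lectin of myeloid cells. In the authors' DESeq2 table the p of Ciita was 0.00304 before adjustment and 0.208 after it. The class II genes did not share its sign as a set. H2-Eb1, H2-Aa and Cd74 had a negative sign, with unadjusted p-values there of 0.0874, 0.532 and 0.990. H2-Ab1, H2-DMa and H2-DMb1 had a positive one, with 0.396, 0.986 and 0.228.

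Ligands and partners of the member receptors did not pass the test either. Of 10 such genes, 0 had an unadjusted p under 0.05, beside 2.70% of all genes in each direction. Csf1, the ligand of Csf1r, had a mean count of 225 and was at -0.41 ± 0.61 (SE, reconstructed log2). Il34, its other ligand, had a mean count of 24.7. Cxcl12, the ligand of Cxcr4, was at 1.03 ± 0.57, with a 95% interval from -0.10 to 2.16. Kitl, the growth factor of mast cells, had a 95% interval from -2.39 to 0.39 (unadjusted p = 0.156 in the authors' deposited table). Il7 had a mean count of 1.88, and Ccl19, Ccl21a and Tslp are not analysed here.

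Of 12 further complement genes in the table, 5 had a positive sign, beside 54.7% of all genes, and the median of 10 reconstructed values was -0.06. At an unadjusted p under 0.05, 3 were higher and 0 lower, beside 2.70% of all genes in each direction. In the authors' DESeq2 test 0 were called, beside 0.743% of all genes. C2 was at 1.84 ± 0.70 and C3, the central complement protein, at 0.88 ± 0.42 (SE), and C5ar1, a receptor of myeloid cells, had a mean count of 13.8. Liver secretes C2, C3 and apolipoprotein E in quantity, and liver markers had the same sign. Of 9 liver genes in the table, 9 had a positive sign, beside 54.7% of all genes. At an unadjusted p under 0.05, 4 were higher and 0 lower, beside 2.70% of all genes in each direction. In the authors' DESeq2 test 0 were called, beside 0.743% of all genes, and the median of 6 reconstructed values was 1.77. The part of liver RNA in the values of C2, C3 and Apoe was not tested.

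Markers of blood and of the neighbouring spleen were also in the table. Of 10 erythroid genes in the table, 8 had an adjusted p and 1 was called, Gata1, beside 0.743% of all genes. Its adjusted p was 0.0235 in the authors' DESeq2 table, with a positive sign and a mean count of 29.4. The median of 5 reconstructed erythroid values was -0.02. Among genes of spleen stroma, Nkx2-3 was at 0.59 ± 0.84 (SE). Of 6 with a p, 0 had one under 0.05, beside 2.70% of all genes in each direction. Tlx1 had a mean count of 23.5 and no p in the authors' deposited table. The summed level of these lists in each group is unknown, and their part in the immune values was not tested.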

How the data were processed

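RNA was measured in 3 knockout and 3 control samples, grouped by their titles. Per the labels' protocols, TRIzol-extracted RNA was DNase-treated, ribodepleted and made into stranded SMARTer libraries. Trimmomatic, Salmon, DESeq2 and the build GRCm38 (mm10) are named per the submitters' processing notes, with versions, annotation and filters not stated. The protocol names 3 embryos of each group and does not say whether they came from separate litters.

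The authors deposited 1 table of test results. It holds, per the file headers, a mean normalized count over all libraries (a pooled signal deposited by the authors), a log2 change and its error, as the authors deposited them and shrunken to judge by their values, and the authors' p-value before and after adjustment. An adjusted p is missing for 2278 genes that have a p, at mean counts up to 8.15. No gene was tested again here. Because the file holds no counts per library, fits without single replicates could not be run.

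Unshrunken values were reconstructed under a Cauchy prior of common scale 0.310, fitted so that the z of most genes matched the deposited p to within 0.1 (90.8% of genes with a p). Only matched values whose SE is 2 or less are printed. The arithmetic was tested on data simulated under the same prior and scale. That cannot test whether the prior holds for the deposited values. Lengths came from GENCODE M21 and shared 31-base stretches from its transcripts, windows from RefSeq GRCm38.p6, and statistics from Python 3.11.15 with SciPy 1.17.1.

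Named with full values are called members, and, in each class, the 3 members with the smallest p and the 3 with the highest mean count, with ligands of member receptors and wider-list genes at an unadjusted p under 0.05. One gene that this rule would name is not reported here. Some other genes are named to show the range of levels, the pairs of partners or the markers of other tissues. The members and all lists were chosen with earlier results of these data known. Alternatives were other thresholds, adjustments, scalings and limits of the reconstruction.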

Additional observations from a re-analysis of the deposited data

How the results depend on the processing

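Under an adjusted p under 0.1, 1 member, Ltb, is called higher in place of 0. With Benjamini-Hochberg adjustment over all 14386 genes with a p, 88 genes are called and Ltb has an adjusted p of 0.113, computed from the authors' DESeq2 p-values. Over the 8142 genes with a mean count of at least 50, 56 genes are called, against 90 as deposited. No member was called under either. The median of the 21 sized members was 0.37, 0.33 with an SE of at most 1 (10 members), 1.11 relative to pan-epithelial genes and 0.02 as deposited, where shrinkage makes it smaller. The pan-leukocyte median of 0.80 over 4 genes became -0.81 with a match to within 0.05 (2 genes left), -1.36 with an SE of at most 1 (Itgb2 alone left), and -0.29 over 3 genes with the scale rounded to 0.31, so no direction can be given for that class. The mast cell value of 0.71 became 1.45 relative to pan-epithelial genes, which is the added 0.74. A prior scale 0.8 times the fitted one left 0 members with a match, and the larger scale tried matched 14.6% of genes and 5 members, with a median of 0.00050. The SE limit of 1, the rounded scale and the shortest transcript lengths were chosen after seeing the data. The count at an unadjusted p under 0.05 gave 1 higher and 0 lower member also without Lyz1 and Lyz2 and at mean counts of at least 10. No paired analysis was possible because the deposited table holds no values per library, although both groups carry replicate numbers 1 to 3; leaving out each replicate was not run for the same reason.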

Other observations

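Of 9 platelet and megakaryocyte genes listed, 2 were in the table, and of 5 lymph vessel genes, 4. Pf4, a platelet chemokine that fetal macrophages can also express, was at 150 mean counts per kb, beside 130 for Cpa3, and at 0.41 ± 0.83 (SE, reconstructed log2). Lyve1, found on lymphatic endothelium and on some resident macrophages, was at 82.5 per kb and at 0.94 ± 0.57, while Pdpn was at 293 per kb and at -0.05 ± 0.52. The others were lower, with Itga2b at 12.3 per kb, Flt4 at 10.1 and Prox1 at 8.46. Genes of class I antigen presentation spread widely in level. B2m, the light chain of class I, was at 229 per kb and Tapbp, which helps to load peptides, at 187. The class I heavy chains H2-D1 and H2-K1 were at 72.9 and 60.4 per kb, beside 70.4 for Cd74 of class II. The peptide transporter genes Tap2 and Tap1 were at 19.3 and 10.4 per kb, beside 32.6 for H2-Eb1 and 18.8 for H2-Ab1 of class II. The reconstructed log2 fold changes were 0.08 ± 0.76 for B2m, 0.54 ± 0.54 for Tapbp and -0.89 ± 0.83 for H2-D1.

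Some of the rarest members had nearly the same p as other genes of their count. For Cd52 and Elane, 75.3% of genes with the same sign and a mean count within 5% had a p within 0.1 of theirs on the log10 scale. The same share was 65.9% for Aif1, 46.9% for Cd79b and 28.4% for Camp. It was only 9.09% for H2-Aa, the member with the lowest mean count, and 45.3% for Itgam, with a mean count of 71.1. Shares such as those of Cd79b and Camp are therefore not particular to rare members. The share was 4.20% for Ltb, whose unadjusted p of 0.000970 is near the smallest of its like-count genes, 0.000665, in the authors' deposited table.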
